A study of Mus musculus with 12 samples.

Results

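The immediate early genes Fos, Fosb, Jun, Junb, Egr1, Ier2, Ier3, Dusp1, Atf3 and Zfp36 were followed through mouse primordial germ cells (PGCs) and cells like them made in culture. All 10 genes had a probe set that the platform annotation assigns to that gene alone. Together they had 11 such probe sets, and the brightest on average over the 12 arrays stood for its gene. They are 10 of the 18194 genes with a probe set of their own on the arrays, and all 10 were among the 13436 genes bright enough to be tested.

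PGCs are the embryonic precursors of oocytes and sperm, and PGC-like cells (PGCLCs) are their counterparts grown in the dish from embryonic stem cells. The 12 samples, which the labels call biological replicates, formed 6 groups of 2, each sample on 1 Affymetrix array. There were 4 groups of PGCLCs of C57BL/6 background carrying the reporters Blimp1-mVenus and stella-ECFP: female cells at day 3 (d3), female and male cells at day 6 (d6 female and d6 male), and female d3 cells aggregated for 6 further days with somatic cells of female E12.5 gonads (d3ag6). The other groups were stella-EGFP PGCs from crosses of C57BL/6 males with wild-type BDF1 females, female at E12.5 and of unknown sex at E9.5. All cells were sorted on reporter fluorescence, so that every comparison of PGCLCs with PGCs also compares strain, reporter and culture. Array code EA1013 was that of all d3ag6, d3, E12.5 and d6 female samples, and d6 male and E9.5 had 1 array each under the codes EA0831 and EA0842. Code and group therefore cannot be told apart in d6 female against E9.5, d6 female against d6 male, or E12.5 against E9.5.

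Immediate early genes are transcribed within minutes of a growth factor or stress signal, because the kinases and the factors that switch them on, such as SRF with its ETS partners and CREB, are already in the cell. Their messages are short-lived. FOS and JUN proteins pair through leucine zippers to form AP-1, which turns a brief signal into a change of other genes, while DUSP1, which dephosphorylates MAP kinases, and ZFP36 (tristetraprolin), which binds AU-rich messages and brings about their decay, end the response. In PGCs and stem cells the same kinase pathways carry signals of FGF, KIT ligand and LIF. Release of cells from tissue is also known to raise these genes; how the cells were released before sorting is not given in the sources used here, and its part was not tested.

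The promoters of a pair that shared its lowest group, Fos and Dusp1, and of the pair with the most similar profiles, Junb and Zfp36, are shown as the 250 bases before the annotated start (RefSeq, GRCm38.p6), 5′ to 3′, with the motifs found in capitals.
Fos, chr12:85473640-85473889, plus strand: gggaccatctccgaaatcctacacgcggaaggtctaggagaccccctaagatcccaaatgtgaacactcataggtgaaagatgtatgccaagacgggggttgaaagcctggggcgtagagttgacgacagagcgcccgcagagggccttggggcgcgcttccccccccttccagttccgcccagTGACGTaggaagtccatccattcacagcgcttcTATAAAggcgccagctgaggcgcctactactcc
Dusp1, chr17:26508473-26508722, minus strand: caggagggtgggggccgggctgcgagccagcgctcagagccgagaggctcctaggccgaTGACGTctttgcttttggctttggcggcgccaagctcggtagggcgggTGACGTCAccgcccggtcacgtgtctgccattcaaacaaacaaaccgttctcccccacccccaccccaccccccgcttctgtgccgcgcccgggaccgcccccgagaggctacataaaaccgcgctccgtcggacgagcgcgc
Junb, chr8:84978749-84978998, minus strand: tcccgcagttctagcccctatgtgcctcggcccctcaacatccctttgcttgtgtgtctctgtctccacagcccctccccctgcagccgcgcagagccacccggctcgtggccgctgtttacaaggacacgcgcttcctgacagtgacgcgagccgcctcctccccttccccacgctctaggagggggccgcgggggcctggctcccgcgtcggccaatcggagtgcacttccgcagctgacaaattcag
Zfp36, chr7:28379229-28379478, minus strand: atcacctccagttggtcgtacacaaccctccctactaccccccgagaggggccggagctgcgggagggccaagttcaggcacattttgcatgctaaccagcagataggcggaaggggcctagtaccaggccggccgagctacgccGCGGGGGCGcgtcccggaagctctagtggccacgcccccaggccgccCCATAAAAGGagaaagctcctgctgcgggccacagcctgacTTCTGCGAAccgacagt
In Fos and Dusp1 the capitals mark TGACGT, the core of the cAMP response element that CREB binds, and in Fos also TATAAA. Dusp1 holds TGACGT 3 times, of which a pair on opposite strands overlaps. In Zfp36 the capitals mark GCGNGGGCG, the site of EGR proteins, then a CArG box, the site of SRF, and TTCNNNGAA, the site of STAT proteins; none of the motifs searched was found in Junb. Both strands were searched. RefSeq promoters were matched for 8 of the 10 genes, not for Egr1 or Ier2, and TGACGT was in 3 of the 8 (the other being Atf3), against 6.47% of all 32851 promoters of this length. GCGNGGGCG was in 2 of 8 (4.7% of all), a CArG box in 1 (1.47%), TTCNNNGAA in 1 (7.02%), TATAAA in 1 (12.4%) and TGANTCA, the AP-1 site, in 0 (6.75%). A match describes these letters and is not evidence of binding.

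Values below are log2 signal, quantile normalized between arrays, and differences are on the same log2 scale with their standard error (SE) from limma. A gene was called where its Benjamini-Hochberg p-value, adjusted across the tested genes, was under 0.05. With 2 arrays a group, the number of arrays limits the precision. In sorted bulk samples, fewer cells with a transcript and less transcript per cell cannot be told apart. Levels of different genes were not compared, because probe sets differ in brightness.

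Of the 10 genes, 8 differed among the 6 groups by limma's F test, in which 37% of all genes tested were called, and Jun and Atf3 did not pass (adjusted p = 0.622 and 0.233). Fosb is 1 of the 8, but it was tested because of the groups in which it was high. Its calls here and below are given as values and support nothing. Of the other 9 genes 7 were called. The range of the group means had a median of 1.87 over the 10 genes and of 0.85 over all genes tested. The genes did not share 1 order of the groups: Junb, Zfp36, Fos, Fosb and Atf3 had their highest mean in d3 cells, Egr1 in d3ag6 cells, Ier2 in d6 female cells, Jun and Dusp1 in d6 male cells, and Ier3 in E9.5 PGCs. The lowest mean was in E9.5 PGCs for Fos, Fosb, Jun, Dusp1 and Atf3 and in E12.5 PGCs for Junb, Egr1, Ier2, Ier3 and Zfp36. Of all 10 genes, none had its lowest mean in a group of PGCLCs.

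**Figure D1:**
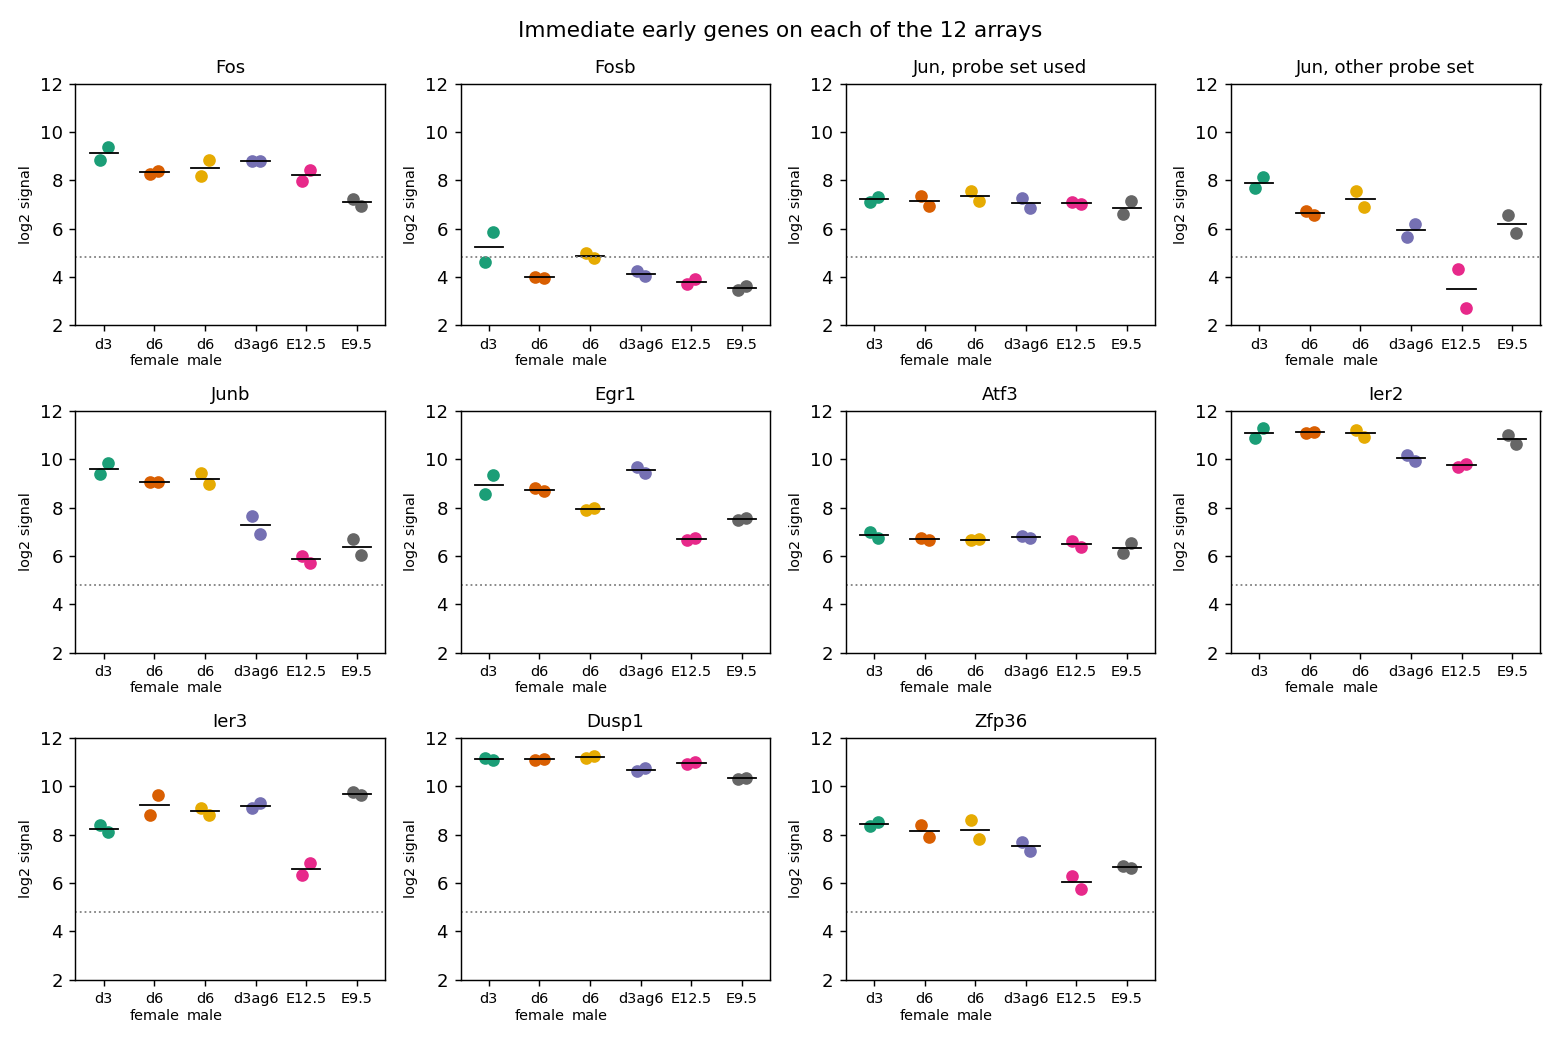
Log2 signal (y axis) of each gene on each array (points, 2 per group) with the group mean (bar), in PGCLCs (d3, d6 female, d6 male, d3ag6) and PGCs (E12.5, E9.5), with the second Jun probe set in a panel of its own. The dotted line is 4.81, the median of all values; Junb and Zfp36 are high in the 3 groups kept in culture alone, while Ier3 is low on the E12.5 arrays, at 6.31 and 6.84.

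Fos, the best known partner of Jun proteins in AP-1, had 8.86 and 9.38 in d3 cells, 8.28 and 8.38 in d6 female cells, 8.17 and 8.84 in d6 male cells, 8.79 and 8.82 in d3ag6 cells, 7.99 and 8.45 in E12.5 PGCs, and 7.23 and 6.96 in E9.5 PGCs. Both E9.5 arrays lay below all other arrays, and the ranges of d6 male cells overlapped those of d3ag6, d6 female and E12.5 cells. The F test gave adjusted p = 0.00478 over group means that spanned 2.03, or 4.08-fold.

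Fosb, a close relative of Fos, was dim. It had 4.63 and 5.86 in d3 cells, 4.02 and 3.95 in d6 female cells, 4.98 and 4.79 in d6 male cells, 4.24 and 4.06 in d3ag6 cells, 3.71 and 3.92 in E12.5 PGCs, and 3.46 and 3.62 in E9.5 PGCs. Only d3 replicate 2 and d6 male replicate 1 exceeded 4.81, and it was through these that the gene passed the filter on dim genes. A gene that enters in this way is chosen for its few high arrays. The F test of Fosb (adjusted p = 0.0174) is therefore no support for a difference, and the sizes of its differences are imprecise.

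Jun had 2 probe sets that disagreed. The one used, with the higher mean, had 7.12 and 7.30 in d3 cells, 7.36 and 6.94 in d6 female cells, 7.54 and 7.16 in d6 male cells, 7.25 and 6.84 in d3ag6 cells, 7.10 and 7.00 in E12.5 PGCs, and 6.60 and 7.16 in E9.5 PGCs, with every neighbouring pair of groups overlapping. The other had 7.67 and 8.14 in d3 cells, 6.72 and 6.58 in d6 female cells, 7.58 and 6.90 in d6 male cells, 5.66 and 6.20 in d3ag6 cells, 4.33 and 2.70 in E12.5 PGCs, and 6.56 and 5.83 in E9.5 PGCs. By that probe set d3 cells were highest and both E12.5 arrays lay below every other array, with 1 at 2.70 and 1 at 4.33, and the groups differed (adjusted p = 0.00213, with group means 4.39 apart). The level of Jun message therefore depends on the probe set. The other one was added after the data were seen, and below both are given only where it was called. It did not pass in d6 female against d3 (-1.26, adjusted p = 0.249) or d3ag6 against d6 female (-0.72, adjusted p = 0.441). Nor did it in d6 female against E9.5 (0.45, adjusted p = 0.604), d6 female against d6 male (-0.59, adjusted p = 0.557) or d6 male against E9.5 (1.05, adjusted p = 0.261).

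Junb, a Jun protein often induced by LIF and STAT3 as well as by growth factors, had 9.39 and 9.83 in d3 cells, 9.06 and 9.05 in d6 female cells, 9.42 and 8.96 in d6 male cells, 7.64 and 6.89 in d3ag6 cells, 5.99 and 5.72 in E12.5 PGCs, and 6.71 and 6.05 in E9.5 PGCs. The groups kept in culture alone lay between 8.96 and 9.83, the d3ag6 arrays lay below all of these, and all E9.5 and E12.5 arrays lay below the d3ag6 arrays. The group means spanned 3.76, or 13.5-fold, the widest of the 10 genes by the probe sets used, although the other Jun probe set spanned 4.39 (F test for Junb, adjusted p = 0.000183). Atf3, a stress-induced leucine zipper factor of the ATF family, stayed between 6.10 and 6.99 on all arrays.

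Egr1, a zinc finger factor induced through ERK and SRF, had 8.55 and 9.34 in d3 cells, 8.79 and 8.68 in d6 female cells, 7.89 and 7.98 in d6 male cells, 9.67 and 9.43 in d3ag6 cells, 6.65 and 6.75 in E12.5 PGCs, and 7.48 and 7.57 in E9.5 PGCs. The d3ag6 arrays were the highest of all and the E12.5 arrays the lowest, with means of 9.55 ± 0.17 in d3ag6 cells and 6.70 ± 0.07 in E12.5 PGCs (SD, n = 2 each, as for all means below). The F test gave adjusted p = 0.00037. The ranges of d3 and d6 female cells overlapped, and no other neighbours in the order did.

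Ier2, a nuclear protein named as an immediate early response gene, had 10.88 and 11.29 in d3 cells, 11.10 and 11.13 in d6 female cells, 11.21 and 10.92 in d6 male cells, 10.17 and 9.94 in d3ag6 cells, 9.69 and 9.81 in E12.5 PGCs, and 11.00 and 10.63 in E9.5 PGCs. The d3ag6 and E12.5 arrays lay below the other arrays (F test, adjusted p = 0.00268). Ier3, a stress-inducible gene tied to cell survival, had 8.38 and 8.11 in d3 cells, 8.81 and 9.64 in d6 female cells, 9.11 and 8.83 in d6 male cells, 9.09 and 9.33 in d3ag6 cells, 6.31 and 6.84 in E12.5 PGCs, and 9.78 and 9.63 in E9.5 PGCs. Both E12.5 arrays lay more than 1 log2 unit below every other array, and E9.5 PGCs, the other PGCs of the embryo, were at the top of the order, overlapping d6 female cells (F test, adjusted p = 0.000634).

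Dusp1 had 11.17 and 11.10 in d3 cells, 11.10 and 11.14 in d6 female cells, 11.16 and 11.27 in d6 male cells, 10.64 and 10.74 in d3ag6 cells, 10.93 and 10.99 in E12.5 PGCs, and 10.30 and 10.36 in E9.5 PGCs. Its group means spanned 0.88, or 1.84-fold, but its replicates were close (pooled SD 0.057), and E9.5 arrays were the lowest (F test, adjusted p = 0.00596). Zfp36 had 8.37 and 8.53 in d3 cells, 8.40 and 7.89 in d6 female cells, 8.61 and 7.81 in d6 male cells, 7.71 and 7.34 in d3ag6 cells, 6.29 and 5.77 in E12.5 PGCs, and 6.70 and 6.61 in E9.5 PGCs. Its order of groups was that of Junb, with d3, d6 male and d6 female cells overlapping at the top and d3ag6, E9.5 and E12.5 following without overlap (F test, adjusted p = 0.00158).

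Over the 12 arrays Junb and Zfp36 had a Pearson correlation of 0.96, the highest of any pair of the 10 genes, and Ier3 with Dusp1 had the lowest at -0.35. The other Jun probe set had 0.88 with Zfp36 and 0.83 with Junb, but 0.29 with the probe set used for Jun. These values describe 12 arrays that share 6 groups of 2, so that they rest mostly on differences between groups. The non-member genes most like Fos were Gab1 (0.96), Nod1 (0.93), Atxn3 (0.92), Ubr4 (0.90) and Pip4k2c (0.90). Those most like Egr1 were Sec16a (0.96), Prrc2b (0.93), Msantd4 (0.93), H2-Q2 (0.93) and Ddx17 (0.93), and those most like Dusp1 were Cnpy1 (0.95), Ccng1 (0.93), Triml1 (0.93), Ctsw (0.93) and Htra1 (0.93).

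**Figure D2:**
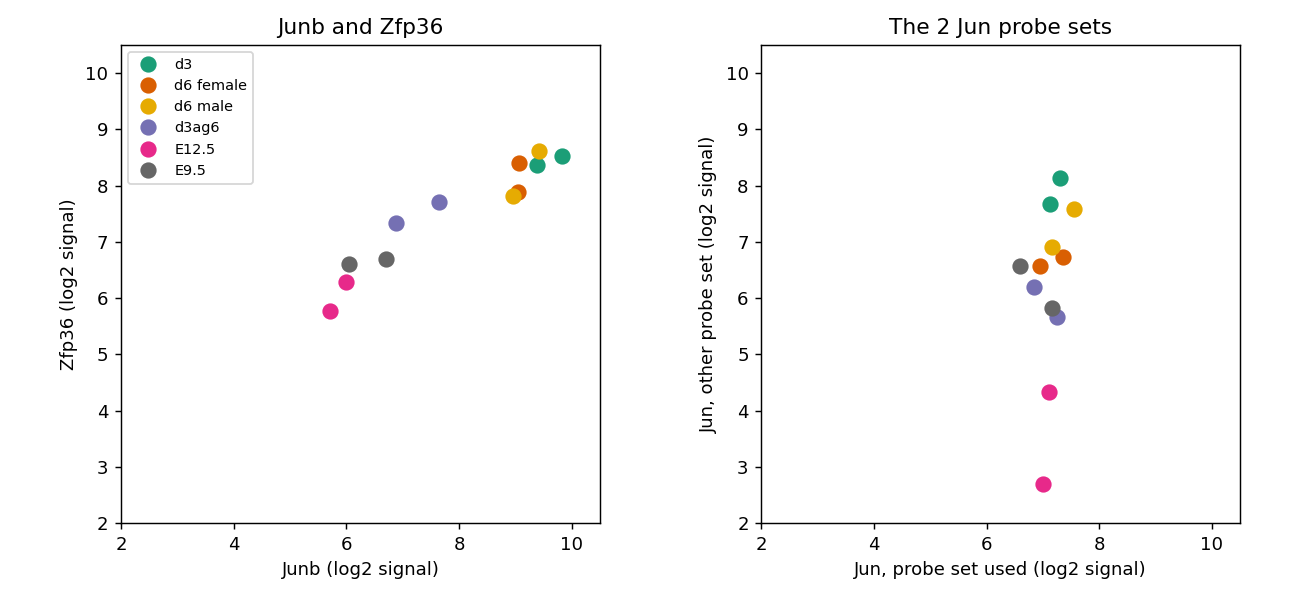
Left, Zfp36 (y axis) against Junb (x axis), and right, the other Jun probe set (y axis) against the one used (x axis), in log2 signal, 1 point per array coloured by group. Junb and Zfp36 run together over all 6 groups, while the other Jun probe set spans 2.70 to 8.14 where the one used stays between 6.60 and 7.54.

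The 8 comparisons that follow share arrays with each other, so that they are not independent. The median difference of the 10 genes was 0.62 in d6 female against E9.5, 0.68 in d6 male against E9.5 and 0.46 in d3ag6 against E12.5, while over all genes tested it was 0.06, -0.00 and 0.00 in these comparisons. It was -0.18 in d6 female against d3, -0.38 in d3ag6 against d3, -0.06 in d3ag6 against d6 female, -0.08 in d6 female against d6 male and -0.18 in E12.5 against E9.5, with -0.01, -0.00, 0.01, 0.05 and 0.08 over all genes.

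Time in culture was examined first. In d6 female against d3 cells, none of the 10 genes was called, where limma called 4.06% of all genes (1.72% higher and 2.34% lower), although 3 had an unadjusted p under 0.05. By the probe sets used, the largest differences were in Fosb (3.98 ± 0.05 in d6 female and 5.24 ± 0.87 in d3 cells; -1.26, SE 0.33, adjusted p = 0.0756), Ier3 (0.98, SE 0.29, adjusted p = 0.113) and Fos (-0.79, SE 0.27, adjusted p = 0.171). Without d3 replicate 1, Fosb was called (-1.87, adjusted p = 0.00865), a call that rests on the remaining d3 array. Junb (-0.55, SE 0.31) and Dusp1 (-0.02, SE 0.14) did not pass.

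Aggregation with gonadal somatic cells was examined by setting d3ag6 cells against the d3 cells from which they came. In this comparison aggregation and the 6 further days cannot be told apart. Junb fell, with means of 7.26 ± 0.53 in d3ag6 and 9.61 ± 0.31 in d3 cells (-2.35, SE 0.31, adjusted p = 0.00217), and so did Ier2 (10.06 ± 0.16 in d3ag6 and 11.09 ± 0.29 in d3 cells; -1.03, SE 0.20, adjusted p = 0.0138). These were 2 of 10 genes lower, against 4.84% of all genes lower, 5.81% higher and 10.6% called in all, and none was higher. Junb was called with each array left out in turn. Ier2 lost its call without d3 replicate 2, d3ag6 replicate 1 or d3ag6 replicate 2 (adjusted p = 0.0504 to 0.0969), and when no other arrays were fitted (adjusted p = 0.0674). Zfp36 (-0.93, adjusted p = 0.0909), Fosb (-1.09, adjusted p = 0.0702), Ier3 (0.96, adjusted p = 0.07) and Dusp1 (-0.45, adjusted p = 0.0732) did not pass, but Fosb did without d3 replicate 1 (adjusted p = 0.00364) and Egr1 (0.60, adjusted p = 0.156) did without d3 replicate 2 (adjusted p = 0.0227). By the other probe set, Jun fell by 1.98 (SE 0.50, adjusted p = 0.0369), while by the one used it did not pass (-0.16, adjusted p = 0.77).

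Set against d6 female cells, which share that starting point but not the time, d3ag6 cells again had lower Junb (7.26 ± 0.53 in d3ag6 and 9.05 ± 0.01 in d6 female cells; -1.79, SE 0.31, adjusted p = 0.0139) and lower Ier2 (10.06 ± 0.16 in d3ag6 and 11.12 ± 0.02 in d6 female cells; -1.06, SE 0.20, adjusted p = 0.0205). That is 2 of 10 genes, where 6.39% of all genes were called, 2.36% lower and 4.03% higher. Both comparisons share the d3ag6 arrays. Neither call was firm: Junb was lost without d6 female replicate 1, d6 female replicate 2 or d3ag6 replicate 2 (adjusted p = 0.0638 to 0.106), and Ier2 without any 1 of the 4 arrays (adjusted p = 0.0672 to 0.145). Egr1 had means of 9.55 ± 0.17 in d3ag6 and 8.74 ± 0.08 in d6 female cells and did not pass (0.81, SE 0.24, adjusted p = 0.081), nor did Ier3 (-0.02, adjusted p = 0.981). Over all genes 542 were higher and 317 lower, or 659 and 236 with the values as deposited.

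Some macrophage markers were raised in the d3ag6 group, but Aif1 and the globins of the same list were not. Aif1 had 4.42 and 4.92 in d3ag6 cells, against 3.83 and 4.63 in d3 and 4.66 and 4.76 in d6 female cells. Of the 9 tested markers of macrophages and blood, 5 were called higher in d3ag6 against d3 cells, beside 5.81% of all genes. Against d6 female cells 4 were higher, beside 4.03%. Against E12.5 PGCs 5 were higher and 1 lower, beside 5.95% and 3.07%. Lyz2, a lysozyme of macrophages, had 7.91 and 8.45 in d3ag6 cells, against 4.38 and 4.12 in d3 cells. Only its d3ag6 arrays exceeded 4.81, so that it was tested because of the group in which it was high. Its call, 1 of the 5 against d3 cells, therefore supports nothing. Lyz1 had 9.3 and 9.6 in d3ag6 cells, and Ctss had 8.6 and 9.1. Apart from the d3ag6 arrays, each exceeded 4.81 only on E9.5 replicate 1, so both also entered the tests through d3ag6 cells. Any calls of Lyz1 and Ctss as higher in d3ag6 cells likewise support nothing. The counts above were made without setting these genes aside. The embryonic globin Hbb-y had 2.45 and 2.97 in d3ag6 cells, against 3.18 and 2.86 in d3 cells and 6.98 and 5.97 in E12.5 PGCs. The log2 values of the list summed over 12 markers were 76.4 to 76.8 in d3ag6 cells, against 49.4 to 53.7 in d6 female cells, 50.7 to 50.8 in d3 cells and 54.8 to 56.9 in E12.5 PGCs, and 8 of 12 markers exceeded 4.81 in d3ag6 cells against 4 in d3 and d6 female cells. Over 14 gonadal somatic markers the sum was 66.6 to 69.3 in d3ag6 cells. It was 53.4 to 53.7 in d6 female cells and 54.4 to 60.7 in d3 cells. In PGCs it was 60.7 to 66.0 at E12.5 and 61.3 to 72.4 at E9.5, the second of which overlapped d3ag6 cells. Amh, a Sertoli cell product, was at 0 on 11 of the 12 arrays, and the gonads used for aggregation were female. The part of macrophages and gonadal somatic cells in the d3ag6 values of the immediate early genes was not tested, here or in the comparisons below.

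Compared with the gonadal PGCs they stand in for, d3ag6 cells had higher Egr1 (9.55 ± 0.17 in d3ag6 and 6.70 ± 0.07 in E12.5; 2.85, SE 0.24, adjusted p = 0.000387), a 7.19-fold difference, and higher Ier3 (9.21 ± 0.17 in d3ag6 and 6.58 ± 0.37 in E12.5; 2.63, SE 0.29, adjusted p = 0.00104). Zfp36 (1.50, SE 0.30, adjusted p = 0.0166) and Junb (1.41, SE 0.31, adjusted p = 0.0259) were higher too. In all 4 of 10 genes were higher, where 9.03% of all genes were called, 5.95% higher and 3.07% lower, and none was lower. Egr1 and Ier3 were called with each array left out in turn. Zfp36 was lost without d3ag6 replicate 1, d3ag6 replicate 2 or E12.5 replicate 2 (adjusted p = 0.0589 to 0.131), and Junb without d3ag6 replicate 1 or either E12.5 array (adjusted p = 0.0997 to 0.161) and with no filter on dim genes (adjusted p = 0.0543). By the other probe set Jun was higher by 2.42 (SE 0.50, adjusted p = 0.0186), with an imprecise size, since the E12.5 mean of 3.51 lies below 4.81. By the one used it differed by -0.00 (SE 0.25, adjusted p = 0.994). Fos did not pass (0.59, SE 0.27, adjusted p = 0.234).

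**Figure D3:**
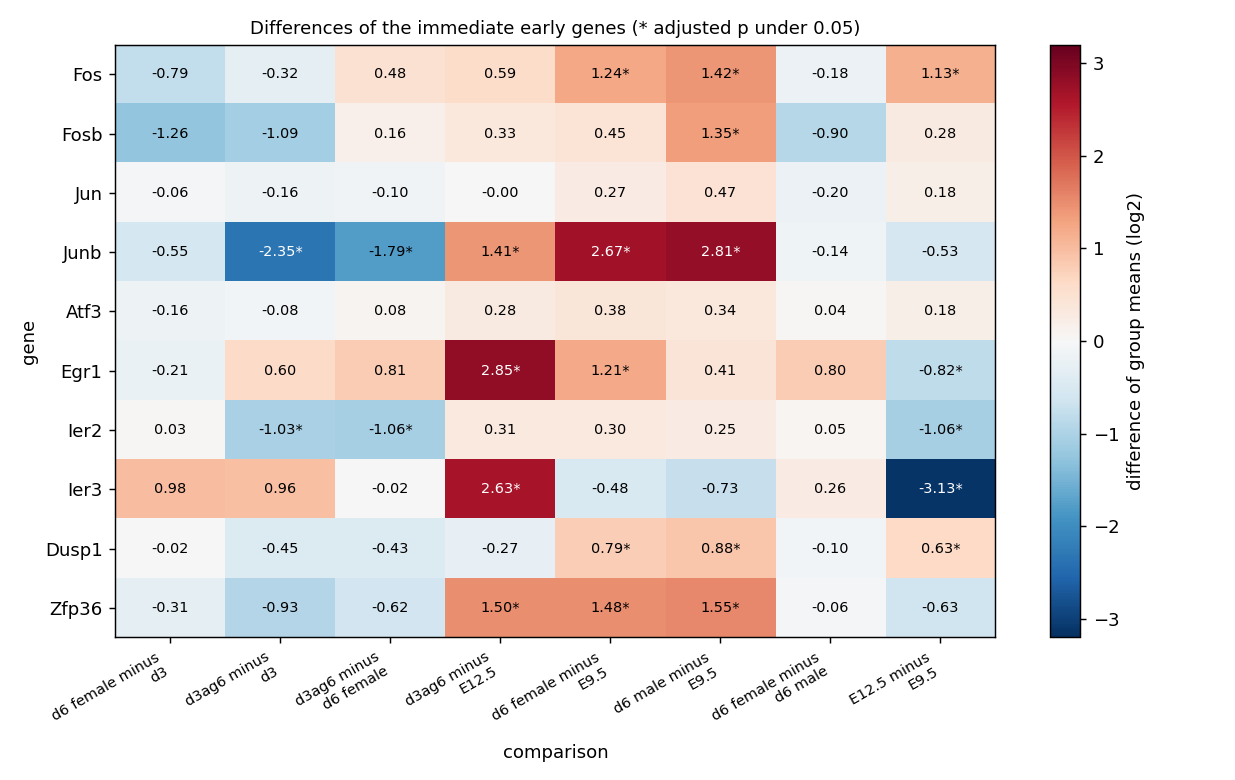
Differences of log2 group means (colour and numbers) for the 10 genes (rows) in the 8 comparisons (columns), each named as the first group minus the second, with an asterisk where limma's adjusted p was under 0.05. Against E9.5, 5 genes were called higher in d6 female and 5 in d6 male cells, beside 8.33% and 6.04% of all genes. The count in d6 male cells includes Fosb, whose call supports nothing. None was called in d6 female minus d3 or d6 female minus d6 male, beside 4.06% and 1.47% of all genes.

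Culture and embryo were compared through day 6 PGCLCs and E9.5 PGCs. Junb was higher in d6 female cells (9.05 ± 0.01 in d6 female cells and 6.38 ± 0.47 in E9.5 PGCs; 2.67, SE 0.31, adjusted p = 0.00112), and so were Zfp36 (1.48, SE 0.30, adjusted p = 0.0131), Fos (1.24, SE 0.27, adjusted p = 0.0178), Egr1 (1.21, SE 0.24, adjusted p = 0.0113) and Dusp1 (0.79, SE 0.14, adjusted p = 0.00659). That made 5 of 10 genes higher, where 13.9% of all genes were called, 8.33% higher and 5.6% lower, and none lower. Over all genes 1119 were higher and 753 lower, or 763 and 950 with the values as deposited. Junb and Dusp1 were called with each array left out, but Dusp1, at under 2-fold, was lost when no other arrays were fitted (adjusted p = 0.0931). Fos was lost without either d6 female array or E9.5 replicate 2 (adjusted p = 0.0774 to 0.0935), Egr1 without either d6 female array (adjusted p = 0.0518 to 0.0737), and Zfp36 without d6 female replicate 1 or E9.5 replicate 2 (adjusted p = 0.0541 to 0.0963).

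Male d6 cells were set against the same E9.5 arrays and shared both array codes with them. Junb was higher in d6 male cells (9.19 ± 0.32 in d6 male cells and 6.38 ± 0.47 in E9.5 PGCs; 2.81, SE 0.31, adjusted p = 0.000928), by 2.71 within code EA0831 and 2.92 within EA0842. Dusp1 was higher by 0.88 (SE 0.14, adjusted p = 0.00413; 0.85 and 0.91 within the codes), Zfp36 by 1.55 (SE 0.30, adjusted p = 0.0123; 1.90 and 1.19) and Fos by 1.42 (SE 0.27, adjusted p = 0.0111; 0.95 and 1.88). Fosb differed by 1.35 (SE 0.33, adjusted p = 0.0318), with an E9.5 mean of 3.54, below 4.81, and by adjusted p = 0.0622 with no filter on dim genes. These were 5 of 10 genes higher, or 4 of 9 with Fosb set aside, where 10.6% of all genes were called, 6.04% higher and 4.55% lower, and none was lower. Junb and Dusp1 kept their calls with each array left out. When no other arrays were fitted, Junb alone was called, and Dusp1 (adjusted p = 0.131), Fos (adjusted p = 0.112), Zfp36 (adjusted p = 0.105) and Fosb (adjusted p = 0.06) were lost. Fosb lost it without any 1 of the 4 arrays (adjusted p = 0.0813 to 0.128), Fos without E9.5 replicate 2 or d6 male replicate 2 (adjusted p = 0.0562 to 0.063), and Zfp36 without E9.5 replicate 2 or d6 male replicate 1 (adjusted p = 0.0524 to 0.0602). Egr1 did not pass in male cells (0.41, SE 0.24, adjusted p = 0.365).

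Between the sexes at day 6, none of the 10 genes was called in d6 female against d6 male cells, where limma called 1.47% of all genes (0.968% higher and 0.499% lower), with 2 at an unadjusted p under 0.05. Fosb (3.98 ± 0.05 in d6 female and 4.89 ± 0.13 in d6 male cells; -0.90, SE 0.33, adjusted p = 0.2) and Egr1 (8.74 ± 0.08 in d6 female and 7.93 ± 0.07 in d6 male cells; 0.80, SE 0.24, adjusted p = 0.137) differed most. Over all genes 130 were higher and 67 lower, or 82 and 115 with the values as deposited. Junb differed by -0.14 (SE 0.31), Dusp1 by -0.10 (SE 0.14) and Ier2 by 0.05 (SE 0.20).

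In PGCs of the embryo, the genes differed both ways between E9.5 and E12.5. Age cannot be told apart from array code here, and the E9.5 PGCs were of unknown sex. Ier3 fell to 6.58 ± 0.37 in E12.5 PGCs, against 9.70 ± 0.11 in E9.5 PGCs (-3.13, SE 0.29, adjusted p = 0.000221), an 8.73-fold difference. Ier2 (-1.06, SE 0.20, adjusted p = 0.00661) and Egr1 (-0.82, SE 0.24, adjusted p = 0.0359) also fell, while Fos (1.13, SE 0.27, adjusted p = 0.0165) and Dusp1 (0.63, SE 0.14, adjusted p = 0.0109) rose. That is 3 of 10 genes lower, where 10.7% of all genes were lower, and 2 higher, where 12.9% were, of 23.6% called in all. Over all genes 1727 were higher and 1443 lower, or 1350 and 1689 with the values as deposited. Ier3 was called with each array left out. Ier2 was lost without E12.5 replicate 1 (adjusted p = 0.0529), Egr1 without any 1 of the 4 arrays (adjusted p = 0.0907 to 0.162), Fos without E12.5 replicate 2 or E9.5 replicate 2 (adjusted p = 0.0759 to 0.12) and Dusp1 without either E12.5 array (adjusted p = 0.0615 to 0.0803) or when no other arrays were fitted (adjusted p = 0.0682). With no filter on dim genes Egr1 had adjusted p = 0.065. Junb (-0.53, adjusted p = 0.255) and Zfp36 (-0.63, adjusted p = 0.162) did not pass. Jun fell by 2.68 by the other probe set (SE 0.50, adjusted p = 0.00566), with an E12.5 mean of 3.51 that lies below 4.81, and did not pass by the one used (0.18, adjusted p = 0.651).

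The step of d3ag6 against d6 female cells was also set against that of E12.5 against E9.5 PGCs in 1 contrast, which was added after the data were seen. Of the 10 genes 3 were called, where limma called 5.75% of all genes, 3.28% higher and 2.47% lower. Ier3 differed by -0.02 in the PGCLC step and by -3.13 in the PGC step, Egr1 by 0.81 and -0.82, and Dusp1 by -0.43 and 0.63. The call of Ier3 held with each array left out. That of Egr1 was lost without any 1 of the 8 arrays (adjusted p = 0.053 to 0.0976), and that of Dusp1 without any 1 of the d3ag6, d6 female or E12.5 arrays (adjusted p = 0.0547 to 0.0769).

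The E9.5 arrays carried more signal of mesenchyme and of the embryonic globin Hbb-y than the other groups. Mesenchyme markers summed to 67.5 to 75.5 over 10 markers in E9.5 PGCs, against 46.0 to 47.0 in E12.5 PGCs, 49.9 to 51.5 in d6 female and 52.2 to 53.7 in d6 male cells. Macrophage and blood markers summed to 59.4 to 76.5 in E9.5 PGCs, with replicate 1 the higher, and included Hbb-y at 12.54 and 11.42. Endothelial markers summed to 50.9 to 51.1 in E9.5 PGCs, against 62.2 to 62.5 in d6 male cells and 52.7 to 59.5 in d6 female cells. Mesenchyme markers were high on both E9.5 arrays, so that leaving out either does not remove them. The part of these cells was not tested. Of 10 germ cell markers 9 were on the arrays, and each of them exceeded 4.81 on all arrays except Dazl on 1 E9.5 array.

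A further 40 immediate early genes had a probe set each, and 37 of them were tested. By the F test 19 of 37 differed among the groups, beside the 37% of all genes. In d6 female against E9.5 PGCs 9 were higher and 2 lower of 37, beside 8.33% and 5.6% of all genes (4 to 8 of 37 called with an array left out), with a median difference of 0.14 against 0.06 over all genes. Socs3, an inhibitor of cytokine signalling that STAT3 induces, was higher by 4.63 (SE 0.46, adjusted p = 0.000621), Nr4a1, an orphan nuclear receptor, by 2.90 (SE 0.45, adjusted p = 0.00394) and Btg2, an anti-proliferative gene, by 1.80 (SE 0.25, adjusted p = 0.00246). These 3 were called with each array left out, whereas Myc, which was lower (-1.46, SE 0.29, adjusted p = 0.0112), was lost without d6 female replicate 2 or E9.5 replicate 1 (adjusted p = 0.0587 to 0.0752). In d6 male against the same E9.5 arrays 5 of 37 were higher and none lower, beside 6.04% and 4.55% of all genes (2 to 5 of 37 called with an array left out; median 0.18, against -0.00 over all genes), with Socs3 higher by 4.35 (SE 0.46) and Btg2 by 1.56 (SE 0.25). Dusp2, a nuclear MAP kinase phosphatase (1.32), and Nr4a1 (2.08) were each lost without E9.5 replicate 2 or d6 male replicate 1 (adjusted p = 0.0777 to 0.0938). The E9.5 mean of Socs3 was 4.54, below 4.81, so that the sizes of its differences from E9.5 are imprecise.

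In d3ag6 against d3 cells 5 of 37 were lower and none higher, beside 4.84% and 5.81% of all genes (1 to 6 of 37 called with an array left out; median -0.42, against -0.00 over all genes). Socs3 had 6.31 and 5.10 in d3ag6 cells, against 9.52 and 9.70 in d3 cells (-3.91, SE 0.46, adjusted p = 0.00118), and it was the 1 gene of the 5 called with each array left out. Ier5 (-1.02), Csrnp1 (-0.84) and Zfp36l1 (-1.12), a relative of Zfp36, each lost their call without 3 or 4 of the arrays (adjusted p = 0.0618 to 0.185 when lost). In d3ag6 against d6 female cells 4 of 37 were lower, beside 2.36% of all genes (1 called in all with any array left out, Socs3 at -3.46, SE 0.46) and Tob1, an anti-proliferative relative of Btg2, was higher (1.56, SE 0.32, adjusted p = 0.0263), which did not pass when any single array was dropped (adjusted p = 0.106 to 0.136). The same held for Plk3, a polo-like kinase (-1.70), and Csrnp1 (-0.80), at adjusted p = 0.0914 to 0.238.

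Against E12.5 PGCs, 5 of 37 were higher in d3ag6 cells and none lower, beside 5.95% and 3.07% of all genes (2 to 3 of 37 called with an array left out; median 0.13, against 0.00 over all genes). Ppp1r15a, which recruits the phosphatase that ends the block of translation under stress, had 8.71 and 8.70 in d3ag6 cells, against 7.58 and 7.48 in E12.5 PGCs (1.18, SE 0.14, adjusted p = 0.00134). Btg2 was higher by 1.80 (SE 0.25, adjusted p = 0.00336), and both calls held whichever array was dropped. Socs3 was higher by 2.40 (SE 0.46, adjusted p = 0.0133) but did not pass without d3ag6 replicate 1 or either E12.5 array (adjusted p = 0.0631 to 0.103). Its size is imprecise, since the E12.5 values of 3.14 and 3.48 lie below 4.81. Maff, a small Maf protein, was higher by 1.64 and was lost without any 1 of the 4 arrays (adjusted p = 0.0724 to 0.151). In E12.5 against E9.5 PGCs 5 of 37 rose and 4 fell, beside 12.9% and 10.7% of all genes (3 to 8 of 37 called with an array left out; median -0.18, against 0.08 over all genes). Ier5 fell by 1.58 (SE 0.22, adjusted p = 0.00149) and Ppp1r15a by 0.76 (SE 0.14, adjusted p = 0.0048), while Klf10, a TGF-beta-induced factor, rose by 0.98 (SE 0.17, adjusted p = 0.00397), each also called with any 1 array left out. Myc fell by 1.44 and was lost without E12.5 replicate 1 (adjusted p = 0.0628). In d6 female against d3 cells 1 of 37 was lower, beside 2.34% of all genes, Zfp36l1 (-1.38, SE 0.27, adjusted p = 0.0264), which lost its call without d3 replicate 2 or either d6 female array (adjusted p = 0.0937 to 0.158), and between the sexes 0 of 37 were called.

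**Figure D4:**
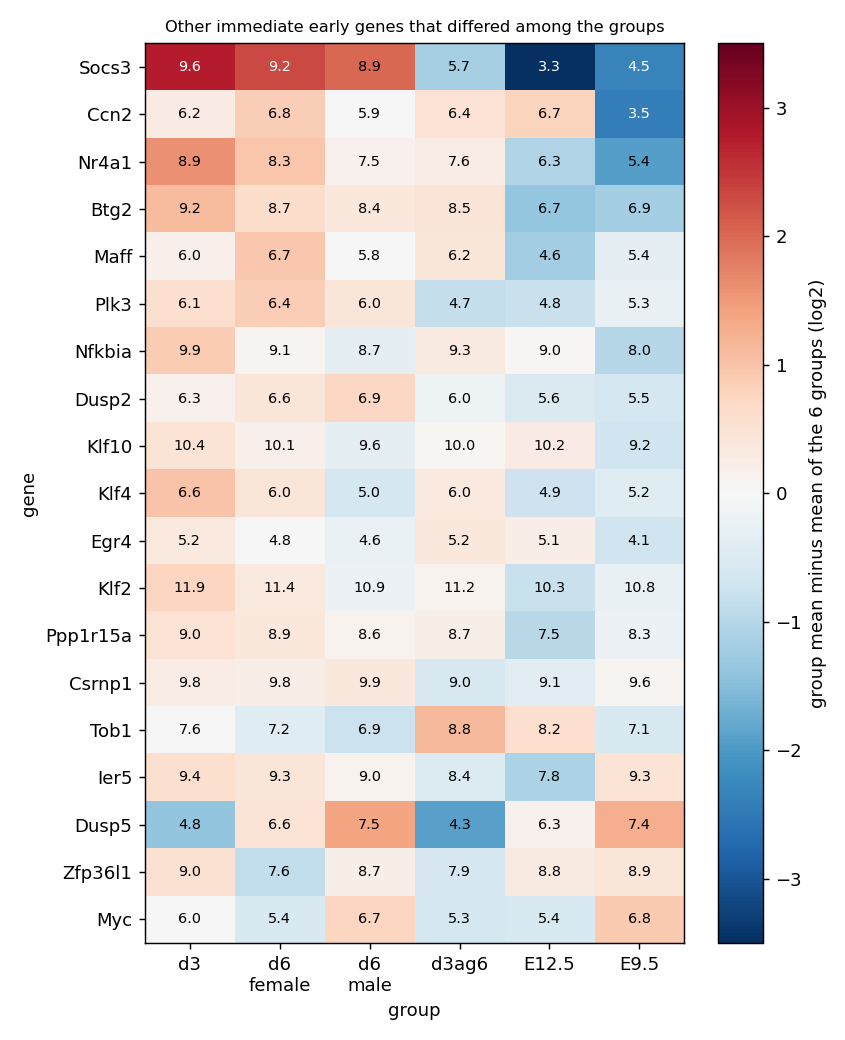
The 19 further immediate early genes that differed among the groups by the F test (rows) in the 6 groups (columns), ordered by the difference of d6 female and E9.5 means. Colour is the group mean minus the mean of the 6 groups and the number is the group mean, both in log2 signal; Socs3 has 9.61 in d3 cells and 3.31 in E12.5 PGCs, the second of which lies below 4.81.

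Of 21 kinases and transcription factors upstream of these genes, 17 had a probe set and were tested. Between 0 and 3 of the 17 were called in a comparison, the 3 being in E12.5 against E9.5 PGCs, where 23.6% of all genes were. Mapk8, the stress-activated kinase JNK1, had 9.36 and 9.46 in d3ag6 cells, against 8.43 and 8.27 in d3 cells (1.06, SE 0.16, adjusted p = 0.00359), and 10.05 and 9.95 in E12.5 PGCs, against 8.50 and 8.67 in E9.5 PGCs (1.42, SE 0.16, adjusted p = 0.000507), and both calls held with each array left out. It was also called higher in d3ag6 than in d6 female cells (0.64) and lower than in E12.5 PGCs (-0.59), each lost without any 1 of the 4 arrays (adjusted p = 0.0936 to 0.282). Rps6ka3, the ERK-activated kinase RSK2, was higher in d3ag6 than in d3 cells (0.59), which did not pass whichever of the 4 arrays was dropped (adjusted p = 0.0834 to 0.128). It was lower in d6 male than in E9.5 cells (-0.69), which was lost without E9.5 replicate 2 or d6 male replicate 2 (adjusted p = 0.0539 to 0.0581). Srf itself fell by 0.78 in E12.5 against E9.5 PGCs (SE 0.22, adjusted p = 0.0312) but did not pass without either E12.5 array or E9.5 replicate 1 (adjusted p = 0.108 to 0.149). Elk3, an ETS partner of SRF, was higher in d6 female than in E9.5 cells (1.44, SE 0.25, adjusted p = 0.00671), a call lost without d6 female replicate 1 (adjusted p = 0.0554). It also rose in E12.5 against E9.5 PGCs (0.99, SE 0.25, adjusted p = 0.0208), which was lost without either E12.5 array or E9.5 replicate 2 (adjusted p = 0.0767 to 0.116).

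Of 16 heat shock and dissociation stress genes, 13 were on the arrays and tested. None was called higher in any of the 8 comparisons, beside 0.968% to 12.9% of all genes. The list holds no immediate early genes, and the part of dissociation was not tested. Hspb1, the small heat shock protein HSP25, had 11.77 and 11.71 in d6 female cells, against 10.91 and 8.84 in E9.5 PGCs (1.87, SE 0.56, adjusted p = 0.0589). It had 10.57 and 10.53 in d3ag6 cells, against 9.02 and 8.85 in E12.5 PGCs (1.61, SE 0.56, adjusted p = 0.12). At most 1 was called in a comparison, in each case lower: Hsph1, an HSP110 chaperone, in d3ag6 against E12.5 (-0.75, SE 0.18, adjusted p = 0.0328) and in d6 female against E9.5 (-0.72, SE 0.18, adjusted p = 0.0289), and Dnajb1, an HSP40 co-chaperone, in d6 male against E9.5 (-0.61, SE 0.14, adjusted p = 0.025). The share of all genes called lower was 3.07%, 5.6% and 4.55% in these comparisons, in that order. None of the 3 calls held when a single array of its groups was dropped (adjusted p = 0.0504 to 0.214). The median difference of the 13 genes was -0.15 in d6 female against E9.5, with 0.06 over all genes.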

How the data were processed

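Expression was measured on 12 Affymetrix mouse arrays, 1 per sample. Per the labels' protocols, cDNA from 5 ng of RNA (500 cells) was PCR amplified with 12 initial cycles, which can raise the spread of dim genes. The authors deposited log2 values of 45101 probe sets for each array; the log base was read from the range of the values, and the summarisation and normalization are not given in the sources used here. Array medians were 4.73 to 4.87, and values were quantile normalized. Probe sets were named by the platform annotation: 34958 had 1 gene, 932 several and 9211 none, and 34754 were matched to RefSeq by gene ID. Each gene took its probe set with the highest mean, and entered the tests if 2 or more arrays were above 4.81, the overall median. Group means over all 12 arrays were compared with limma 3.58.1 in R 4.3.3 (lmFit, eBayes, 6 residual degrees of freedom; two-sided, Benjamini-Hochberg). The p-values rest on the spread within pairs labelled biological replicates. The steps were tested on simulated data. Tables and figures used Python 3.11.15, pandas 2.3.3 and matplotlib 3.10.9.

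The members, the further gene lists and the comparisons were chosen with earlier results of these data known. All 10 members are named; of each further list, up to 4 called genes a comparison in order of adjusted p, and Hspb1, chosen after its values were seen; and the 5 genes most correlated with Fos, Egr1 and Dusp1, leaving out provisional symbols. Alternatives were other filters, scalings and probe set rules, the replicate number as a block, other variance models, subsets of arrays, a 2-fold rule and leaving out each array.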

Additional observations from a re-analysis of the deposited data

Results flagged for a closer look

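The difference of d3ag6 from d6 female cells and that of E12.5 from E9.5 PGCs were set against each other in 1 contrast, chosen after the data were seen, in which limma called 3 of the 10 immediate early genes and 5.75% of all genes. Ier3 differed by -0.02 between d3ag6 and d6 female cells and by -3.13 between E12.5 and E9.5 PGCs, and the difference of these differences was 3.11 (SE 0.41, adjusted p = 0.00452). It was called with each array left out (2.69 to 3.53). Egr1 differed by 0.81 and -0.82 in these steps, and the contrast was 1.63 (SE 0.34, adjusted p = 0.0255). It was lost without any 1 of the 8 arrays (adjusted p = 0.053 to 0.0976) and with no filter on dim genes (adjusted p = 0.0558). Dusp1 differed by -0.43 and 0.63, with a contrast of -1.05 (SE 0.19, adjusted p = 0.0163), which was lost without any 1 of the d3ag6, d6 female or E12.5 arrays (adjusted p = 0.0547 to 0.0769). The E9.5 arrays carry other array codes than the other 3 groups, so that code and the E9.5 group cannot be told apart here.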

How the results depend on the processing

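Of the 23 calls of the 10 genes in the 8 comparisons, 8 held with each array left out. Of these, 6 held under every other setting as well, the exceptions being the calls of Dusp1 in d6 female and d6 male against E9.5. The 23 calls include 1 of Fosb, in d6 male minus E9.5. The counts of 5 there and of 8 in the F test include Fosb too, and its calls support nothing. Counts of called genes among the 10 were 2 in d3ag6 minus d3 (1 to 3 with an array left out; 1 when no other arrays were fitted), 5 in d6 male minus E9.5 (2 to 4; 1 when no other arrays were fitted), 5 in E12.5 minus E9.5 (2 to 4; 3 when a 2-fold change was required too), 0 in d6 female minus d3 (0 to 1), 2 in d3ag6 minus d6 female (0 to 1), 4 in d3ag6 minus E12.5 (2 to 3), 5 in d6 female minus E9.5 (2 to 5), 0 in d6 female minus d6 male (0 to 0) and 8 in the F test (8 to 8). Every other setting gave counts within 1.5 times. Dusp1 was also called in d3ag6 minus d3 with a stricter filter (adjusted p = 0.0389) and with a trended, robust variance (adjusted p = 0.034). The Jun difference turned sign with the mean of both probe sets in d3ag6 minus E12.5 (1.21, adjusted p = 0.0389) and E12.5 minus E9.5 (-1.25, adjusted p = 0.0159), and with the other probe set (2.42 and -2.68), which was tried after the data had been looked at.

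Over all genes, E12.5 against E9.5 had 3170 called (1387 to 2541 with an array left out; 1849 at 2-fold), d6 female against E9.5 1872 (743 to 1353; 560 when no other arrays were fitted), d3ag6 against d3 1430 (588 to 955; 765), d6 male against E9.5 1424 (849 to 1105; 291), d6 female against d3 545 (112 to 461; 148) and d6 female against d6 male 197 (12 to 239; 2). Without a filter d3ag6 against E12.5 had 775 in place of 1213 (363 to 573 with an array left out) and d3ag6 against d6 female 419 in place of 859 (193 to 356), and the F test called 4965 (3112 to 5175 with an array left out). The replicate block gave 5 of the 10 genes in each comparison with E9.5, 4 in d3ag6 against E12.5, 3 in d3ag6 against d3, 2 in d3ag6 against d6 female, 0 in the other two and 8 in the F test; Zfp36 was added in d3ag6 minus d3 (adjusted p = 0.0395). Deviations of same-numbered arrays correlated by -0.25 to 0.55 over the 15 pairs of groups, so that the numbers were not shown to pair the samples as a whole. The highest, 0.55, was of d6 male and E9.5, whose numbers follow the array codes; there the block left 5 of the 10 genes called, and so did the code as a block, which was added after the data were seen.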
